A study of Homo sapiens with 6 samples.

Results

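The aminoacyl-tRNA synthetase genes were followed after silencing of the lncRNA NEAT1 in BT-549, a long-used human cell line from a triple-negative breast cancer (TNBC). The members were the genes whose symbol in the TPM table was that of a cytoplasmic or mitochondrial synthetase, 36 of the 25545 genes in the table, of which 20 encode cytoplasmic and 16 mitochondrial enzymes. Cells transfected with a control siRNA (CsiRNA) were compared with cells transfected with an siRNA against NEAT1 (NEAT1siRNA), with 3 libraries in each group and RNA taken after 48 h. The sample titles also carry the prefix tet, which the study gives to its inducible shRNA lines. The labels name no inducer for these 6 samples. The NEAT1siRNA was a single product in a single cell line, and both groups were cultured and transfected in the same way. Expression is given as TPM, the reads of a gene scaled by its length and by its library. Tests are limma on log2(TPM + 1) over the 10721 genes whose mean TPM was 1 or more, with Benjamini-Hochberg adjusted p under 0.05 as the threshold and log2 fold changes given as NEAT1siRNA minus CsiRNA on that scale.

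Each synthetase joins an amino acid to the tRNAs that carry its codons, and so sets which residue the ribosome inserts. Mitochondria make a small set of respiratory chain proteins on their own ribosomes and use a mostly separate set of synthetases, encoded in the nucleus and imported. The cytoplasmic glycyl- and lysyl-tRNA synthetases (GARS and KARS) serve both compartments, and EPRS charges both glutamate and proline. Several cytoplasmic enzymes sit together in the multi-synthetase complex. Transcription of many cytoplasmic synthetase genes is known to respond to ATF4, the transcription factor induced when amino acids run short or charging fails.

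TARS2, the mitochondrial threonyl-tRNA synthetase, showed the lowest log2 fold change of all the genes tested, so the sequence before its start is printed here. It lies on the plus strand of chromosome 1 at chr1:150487414-150507602 (GRCh38), and the promoter window from RefSeq (GRCh38.p14, 250 bases before to 50 after the start) is chr1:150487169-150487468, plus strand. No capitals appear in it because none of the motifs searched was found.
TARS2: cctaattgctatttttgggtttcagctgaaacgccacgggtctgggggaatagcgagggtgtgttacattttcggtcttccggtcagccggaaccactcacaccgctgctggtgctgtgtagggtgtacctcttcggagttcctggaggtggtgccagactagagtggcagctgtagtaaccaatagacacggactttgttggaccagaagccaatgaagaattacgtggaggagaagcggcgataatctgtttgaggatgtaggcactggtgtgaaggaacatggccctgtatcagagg
The next lower member was MARS2, the mitochondrial methionyl-tRNA synthetase, whose window at chr2:197705119-197705418, plus strand, holds an E-box (CACGTG, the motif bound by MYC and related factors) in capitals, 11 bases before the start.
MARS2: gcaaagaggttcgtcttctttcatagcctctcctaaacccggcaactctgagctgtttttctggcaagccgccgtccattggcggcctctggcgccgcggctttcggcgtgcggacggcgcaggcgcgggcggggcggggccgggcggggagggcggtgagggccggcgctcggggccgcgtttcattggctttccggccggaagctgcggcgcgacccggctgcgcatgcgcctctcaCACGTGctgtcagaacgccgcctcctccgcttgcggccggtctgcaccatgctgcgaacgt

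RefSeq promoter windows were found for 30 of the 36 members, and 3 motifs were searched on both strands. The core of the ATF4 element, TGATGNAA, was present in 8 of the 30 members (26.7%), against 4.46% of the 27305 genes with a window. The 8 comprised 7 of the 16 cytoplasmic genes and YARS2 among the 14 mitochondrial genes. They are shown because synthetases are textbook targets of ATF4, each 5′ to 3′ on the strand that holds the motif, with 8 bases on either side and the motif in capitals.
AARS, chr16:70289678-70289701, plus strand: aacttggcTGATGCAActgcgaga
CARS, chr11:3057410-3057433, plus strand: ctagaatcTGATGCAAccgccgcc
GARS, chr7:30594837-30594860, minus strand: tcggagcaTGATGAAAtcgccgcg
IARS, chr9:92293695-92293718, plus strand: cacggaggTGATGCAAcgcgctga
MARS, chr12:57488056-57488079, minus strand: tccctcgcTGATGCAAccggaacc
NARS, chr18:57621807-57621830, minus strand: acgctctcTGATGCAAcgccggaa
TARS, chr5:33440959-33440982, minus strand: ggaccagcTGATGCAAtcgaaagg
YARS2, chr12:32756079-32756102, minus strand: cacactgcTGATGGAAaaattaag
With limma 0 of these 8 genes passed the threshold, 0 had an unadjusted p under 0.05 and 0 passed with voom. Over all genes tested these shares were 14.0%, 27.4% and 23.4%, and the difference of the 8 from them was not tested. With the GC trend removed 1 of them, GARS, was higher (0.16, limma adjusted p = 0.013), in a fit where 33.2% of all genes passed. YARS2 was lower without NEAT1siRNA replicate 2 (-0.30, limma adjusted p = 0.030). Their log2 fold changes ran from -0.20 to 0.10, with 6 negative and 2 positive. E-boxes were present in 4 members (IARS, CARS2, EARS2 and MARS2), or 13.3%, against 8.77% of genes with a window. The core of the interferon-stimulated response element was searched only after WARS was seen to pass the threshold. It was found in WARS and EARS2, 6.67% of members against 4.38% of genes with a window. In WARS it stood 55 bases before the second of its RefSeq starts, at chr14:100375385-100375410, minus strand, in capitals.
WARS: tcagaaggGAAACTGAAAgaaagagg
None of the matches overlapped another motif. A match is a description of the letters in a window, and no binding was measured.

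The libraries held 15786975 to 20343554 reads, as recovered from the deposited values. NEAT1 fell to 31.5% of its CsiRNA mean (log2 fold change -1.41), with TPM of 13.4, 7.68 and 10.8 with CsiRNA and 4.36, 2.96 and 2.73 with NEAT1siRNA. VIM, CD44 and CDH2, which mark mesenchymal breast cancer cells, were high in every library, with VIM at 859 to 1112 TPM. CD44 (-0.31) and CDH2 (-0.34) were lower with NEAT1siRNA (limma adjusted p = 0.019 for each), and VIM (-0.15) did not pass the threshold. ESR1, PGR, CDH1 and EPCAM, the leukocyte genes PTPRC and CD3E and the endothelial genes PECAM1 and CDH5 were at or near 0. CD68, a lysosomal gene used as a macrophage marker, was at 23.2 to 29.2 TPM. The libraries differed in GC content: deviations from the group mean correlated with GC content with a Spearman rho between -0.73 (replicate 2 of NEAT1siRNA) and 0.68 (replicate 1 of NEAT1siRNA) across 10426 genes, which are not independent. The fit without a trend on GC content and length is given beside the members whose call it changed.

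Across the synthetases, 35 of the 36 genes were expressed highly enough to be tested. With NEAT1siRNA, 3 were lower (TARS2, MARS2 and FARSA) and 1 was higher (WARS). These 4 are 11.4% of those tested, against 14.0% of all genes tested (8.98% lower and 4.99% higher), so the share of synthetases past the threshold was near the background. The remaining 31 had log2 fold changes between -0.28 and 0.22, of which 24 were negative and 7 positive. Groups that did not overlap, whatever the test gave, were found for 9 members that were lower and 1 that was higher, or 25.7% and 2.86% of those tested, beside 19.3% and 11.0% of all genes tested. After removal of the trend on GC content and length, 6 synthetases were lower and 3 higher, beside 33.2% of all genes past the threshold.

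**Figure D1:**
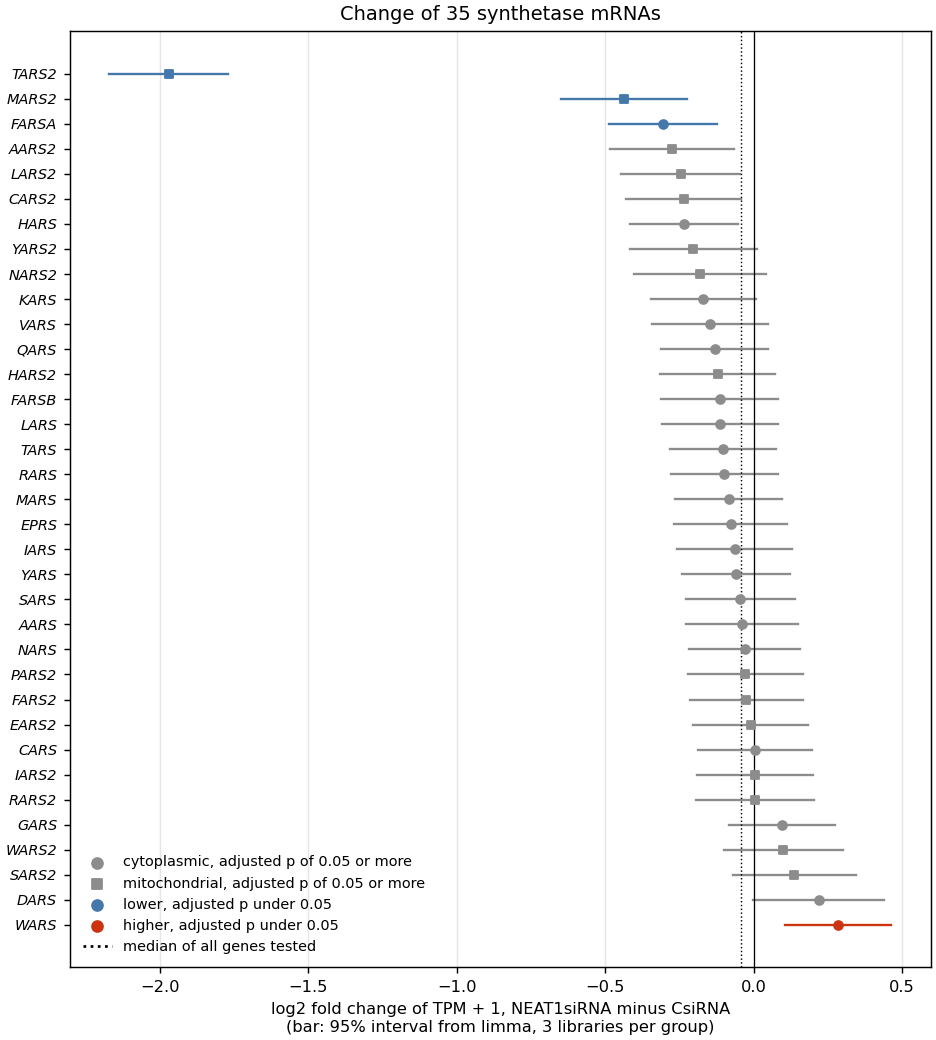
Log2 fold change of TPM + 1 (NEAT1siRNA minus CsiRNA) for the 35 synthetases tested, sorted, with bars for the 95% interval from limma (3 libraries per group), circles for cytoplasmic and squares for mitochondrial enzymes, blue for lower and red for higher past the threshold, and a dotted line at the median of all genes tested. TARS2 at -1.97 stands apart from the other 34, which lie between -0.44 and 0.28.

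TARS2 mRNA was at 11.6, 10.2 and 10.7 TPM in the CsiRNA libraries and at 2.29, 1.76 and 1.99 TPM in the NEAT1siRNA libraries. Every NEAT1siRNA library was thus far below every CsiRNA library, and the spread within each group was small beside the gap. The mean fell from 10.8 ± 0.715 to 2.01 ± 0.266 TPM (SD, n = 3 each), to 18.6% of the CsiRNA mean. The log2 fold change of -1.97 (SE 0.10, 95% interval -2.17 to -1.77) had a limma adjusted p = 5.09e-13. TARS2 ranked 1 of 10721 from the lowest, below NEAT1 itself at -1.41. As recovered reads, TARS2 had 624, 555 and 710 with CsiRNA and 133, 108 and 108 with NEAT1siRNA, which is enough depth for the difference to be far beyond counting error. Fewer cells with the mRNA and less mRNA per cell cannot be told apart in bulk RNA.

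The 3 nearest genes tested on each side of TARS2 were described next. On the side of the gene's start, RPRD2, PRPF3 and MRPS21 end 10.8, 134 and 178 kb before it and had log2 fold changes of -0.01, -0.14 and -0.00, none past the threshold. On the other side, MCL1, which encodes a survival protein of the BCL2 family, was at 0.08 and ENSA at -0.07, also not past it. The antisense lncRNA ADAMTSL4-AS1, whose span begins 52.6 kb past the end of TARS2, was lower (log2 fold change -0.64, adjusted p = 0.0011), but at a mean of only 1.11 TPM and 7.01 to 34.0 reads per library. With no filter on TPM, its limma adjusted p was 0.10. Within the span of TARS2, the annotation lists only the microRNA gene MIR6878, on the same strand and sharing 66 bases, and no other protein-coding gene.

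**Figure D2:**
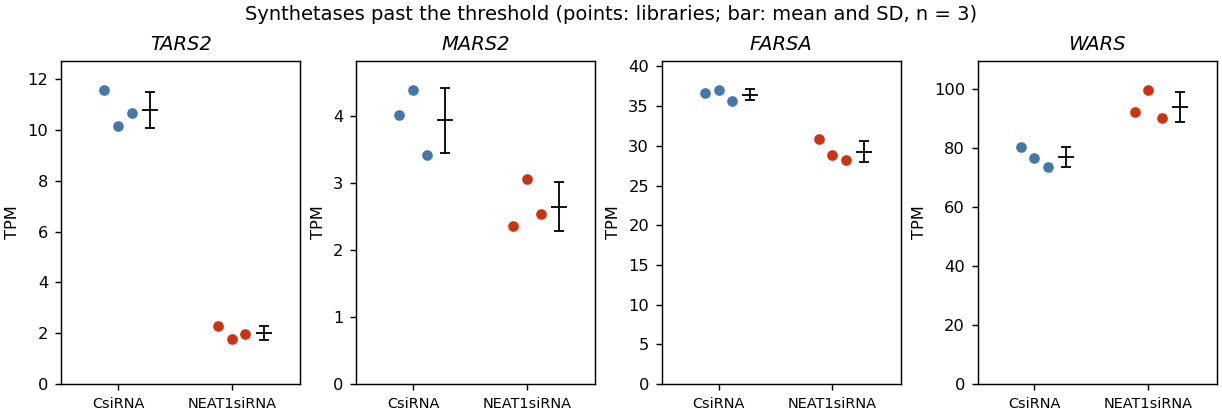
TPM (linear axes from 0) of the 4 synthetases past the threshold, with 1 point per library and black bars for the mean and SD of 3 libraries. The groups do not overlap in any panel, and TARS2 has the widest gap in proportion, from a mean of 10.8 to 2.01 TPM.

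MARS2 charges the mitochondrial tRNA for methionine, which is used both to start and to extend mitochondrial proteins. Its TPM was 4.01, 4.38 and 3.42 with CsiRNA and 2.35, 3.06 and 2.53 with NEAT1siRNA. The groups did not overlap, though NEAT1siRNA replicate 2 came close to CsiRNA replicate 3. The mean fell to 67.3% of that with CsiRNA (log2 fold change -0.44, SE 0.10, limma adjusted p = 0.0052). The call was lost with no filter on TPM (adjusted p = 0.10), and MARS2 was too low to be tested at a mean TPM of at least 5. In recovered reads the libraries ran from 242 to 268 with CsiRNA and from 153 to 210 with NEAT1siRNA. An unnamed lncRNA gene (ENSG00000222017) covers the whole of MARS2 on the same strand, so reads of either could have been given to the other.

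The other 13 mitochondrial enzymes tested did not pass the threshold, and 9 were negative and 4 positive. The lowest was AARS2, for alanine, at 5.12, 4.36 and 4.68 TPM with CsiRNA and 4.15, 3.17 and 3.89 with NEAT1siRNA. These groups did not overlap, and the log2 fold change was -0.28 (95% interval -0.48 to -0.07, limma adjusted p = 0.070). AARS2 passed with the GC trend removed and the replicate block together (-0.21, adjusted p = 0.045). LARS2 for leucine (-0.25) and CARS2 for cysteine (-0.24) also had groups that did not overlap, each with the NEAT1siRNA libraries lower, but with adjusted p = 0.094 and 0.095. LARS2 passed the threshold in 4 of 17 other settings. CARS2 passed with the GC trend removed (-0.19, limma adjusted p = 0.011) and with voom on recovered reads (-0.21, 0.045). YARS2 for tyrosine was at -0.20, NARS2 for asparagine at -0.18 and HARS2 for histidine at -0.12, each with overlapping groups.

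PARS2 for proline (-0.03), FARS2 for phenylalanine (-0.02) and EARS2 for glutamate (-0.01) lay within 0.03 of 0 on the log2 scale. IARS2 for isoleucine and RARS2 for arginine were both at 0.00, with 95% intervals of -0.19 to 0.20. WARS2 for tryptophan (0.10) and SARS2 for serine (0.14) were the highest of the mitochondrial enzymes and overlapped between groups. SARS2 and PARS2 were also the thinnest in reads among those tested, at means of 139 and 156 per library. VARS2 for valine was not tested, with a mean TPM under 1. In the fit with no filter it had a log2 fold change of -0.05 (SE 0.03, limma adjusted p = 0.52). The VARS2 mean with NEAT1siRNA was 80.5% of that with CsiRNA, a difference that the added 1 largely hides at so low a TPM. On the same strand, a protein-coding gene shares 15360 bases with SARS2 and a lncRNA gene shares 12255 with VARS2. As for MARS2, reads of either could have been given to the other.

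**Figure D3:**
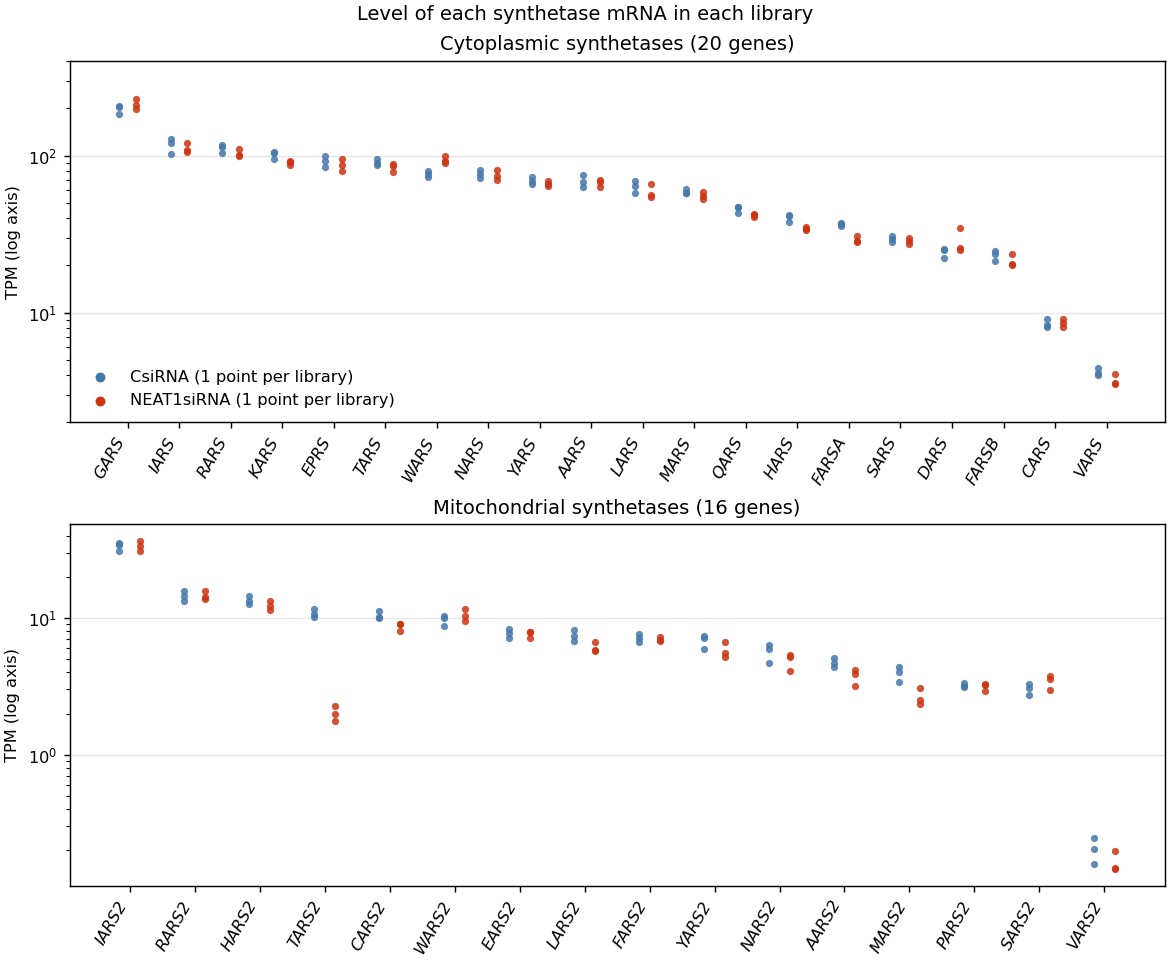
TPM of each of the 36 synthetases in each library on log axes, cytoplasmic above and mitochondrial below, sorted by the CsiRNA mean, blue for CsiRNA and red for NEAT1siRNA. TARS2 drops from the level of CARS2 and WARS2 in CsiRNA libraries to below every other synthetase except VARS2 in NEAT1siRNA libraries.

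In level, the mitochondrial enzymes were expressed well below the cytoplasmic ones. In CsiRNA libraries the median over the 16 mitochondrial genes was 6.70 to 7.85 TPM and that over the 20 cytoplasmic genes was 60.4 to 71.1 TPM. GARS had the highest CsiRNA mean (198 ± 11.6 TPM), followed by IARS (117 ± 12.6), RARS (111 ± 6.95) and KARS (101 ± 4.86). IARS, RARS and KARS are not separated beyond their SDs. Among mitochondrial enzymes IARS2 was highest (33.4 ± 2.40 TPM) and stood clear of RARS2 (14.5 ± 1.29) and HARS2 (13.5 ± 0.923), which overlapped. TARS2 (10.8 ± 0.715), CARS2 (10.5 ± 0.627) and WARS2 (9.69 ± 0.810) followed with overlapping ranges.

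The lengths by which TPM were scaled can be read back from the recovered reads, and for several members they differ from the annotation. For VARS and VARS2, both valyl-tRNA synthetase genes in the MHC region of chromosome 6, the implied length was 6.62 and 6.28 times that of the annotated transcript. For the other 34 members the ratio ran from 0.370 to 2.55, with a median of 0.986. SARS (2.55), CARS (2.06), CARS2 (1.69) and FARSB (0.370) were the farthest from 1 among these, so their order by TPM also depends on the length used. The TPM levels of VARS (4.21) and VARS2 (0.204) with CsiRNA are therefore not comparable with those of the other genes. Ratios of TPM between libraries are not affected. The log2 fold changes of both are shrunk, because 1 is added to a TPM that the length makes small. The added 1 shrinks those of other members at low TPM too, TARS2 and MARS2 among them. VARS went from -0.15 to -0.18 when 0.1 was added instead. In reads VARS was not low, with a mean of 2386 per library.

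FARSA was the cytoplasmic synthetase that fell in the limma fit. It encodes the alpha subunit of phenylalanyl-tRNA synthetase, an enzyme built from alpha and beta chains. FARSA was at 36.7, 37.0 and 35.6 TPM with CsiRNA and at 30.8, 28.8 and 28.2 with NEAT1siRNA. The groups did not overlap and each was narrow. The log2 fold change was -0.31 (SE 0.09, limma adjusted p = 0.022), which left 80.4% of the level with CsiRNA. The call was lost when CsiRNA replicate 1, CsiRNA replicate 2 or NEAT1siRNA replicate 3 was left out, with adjusted p = 0.081, 0.101 and 0.104. FARSB, the beta subunit, was at 24.8, 23.7 and 21.4 TPM and then 20.1, 23.8 and 20.5, with overlapping groups and a log2 fold change of -0.11 (95% interval -0.31 to 0.08). The difference between the subunits was not tested.

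WARS, the cytoplasmic tryptophanyl-tRNA synthetase, was the member that rose, and it is also known as an interferon-induced gene. Its TPM was 80.4, 76.4 and 73.6 with CsiRNA and 92.1, 99.4 and 89.9 with NEAT1siRNA. All NEAT1siRNA libraries were above all CsiRNA libraries. The mean rose to 122% of that with CsiRNA (log2 fold change 0.28, SE 0.09, limma adjusted p = 0.030). The call was lost with no filter on TPM (adjusted p = 0.067) and when any of 5 libraries was left out, with adjusted p of 0.051 to 0.113, and it held without NEAT1siRNA replicate 2. WARS2, its mitochondrial counterpart, was at 0.10 with overlapping groups.

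The 8 synthetases of the multi-synthetase complex (DARS, EPRS, IARS, KARS, LARS, MARS, QARS and RARS) centred on a log2 fold change of -0.09 (median). With limma 0 of the 8 passed the threshold, where 14.0% of all genes tested did. None had an unadjusted p under 0.05, beside 27.4% of all genes tested. With voom on recovered reads 1 (DARS) was higher, where 11.6% of all genes were. KARS for lysine (-0.17) and QARS for glutamine (-0.13) had groups that did not overlap, with adjusted p = 0.20 and 0.36. KARS passed with the GC trend removed (-0.11, limma adjusted p = 0.041) and not when the replicate block was added (0.059). EPRS, the bifunctional enzyme for glutamate and proline, was at 99.6, 92.0 and 85.2 TPM and then 87.5, 94.9 and 79.8. IARS for isoleucine (-0.06), LARS for leucine (-0.11), MARS for methionine (-0.08) and RARS for arginine (-0.10) also overlapped between groups. DARS for aspartate was the highest of the complex at 0.22 (95% interval -0.00 to 0.44, limma adjusted p = 0.19). Its values were 25.6, 24.9 and 22.2 TPM with CsiRNA and 25.1, 34.8 and 26.0 with NEAT1siRNA, and without NEAT1siRNA replicate 2 the log2 fold change was 0.08. That library also had the most negative correlation of its deviations with GC content (Spearman rho -0.73). With the GC trend removed DARS was at 0.21 and passed (limma adjusted p = 0.0095). DARS passed the threshold in 4 of 17 other settings.

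The complex is held by the noncatalytic proteins AIMP1, AIMP2 and EEF1E1. Their log2 fold changes were 0.02, -0.01 and -0.25. None of the 3 passed the limma threshold or that of voom, beside 14.0% and 23.4% of all genes tested. For 1 (EEF1E1) the unadjusted p was under 0.05, as for 27.4% of all genes.

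Of the other cytoplasmic enzymes, HARS for histidine came nearest to the threshold. It was at 41.5, 41.8 and 38.1 TPM with CsiRNA and 34.3, 34.9 and 33.5 with NEAT1siRNA, groups that did not overlap (log2 fold change -0.23, limma adjusted p = 0.079). HARS passed the threshold in 6 of 17 other settings, among them quantile normalization (adjusted p = 0.041), voom on recovered reads (0.047) and removal of the GC trend (0.0099). HARS and HARS2 lie head to head on chromosome 5 and share 108 bases on opposite strands. HARS2 had a log2 fold change of -0.12 with overlapping groups.

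TARS, the cytoplasmic counterpart of TARS2, was at 94.8, 89.5 and 87.2 TPM with CsiRNA and 85.4, 88.5 and 78.8 with NEAT1siRNA. The groups overlapped, and the log2 fold change was -0.10 (95% interval -0.28 to 0.08). VARS (-0.15), YARS for tyrosine (-0.06), SARS for serine (-0.05), AARS for alanine (-0.04) and NARS for asparagine (-0.03) were also negative. CARS for cysteine was at 0.00 and GARS for glycine at 0.10 (0.16 and past the threshold with the GC trend removed), and all of these overlapped between groups.

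As a set, the median log2 fold change was -0.08 for cytoplasmic and -0.12 for mitochondrial enzymes, beside -0.04 over all genes tested. The added 1 shrinks changes more at the lower TPM of the mitochondrial enzymes. With 0.1 added instead, the medians were -0.08, -0.13 and -0.05. Without CsiRNA replicate 1 these medians were -0.04, -0.07 and -0.01. Without NEAT1siRNA replicate 3 they were -0.04, -0.07 and -0.01. The order of both sets turned without CsiRNA replicate 3 (cytoplasmic -0.131, mitochondrial -0.125, all genes -0.07) and without NEAT1siRNA replicate 2 (-0.124, -0.123 and -0.08). Of the 20 cytoplasmic genes 1 was lower and 1 higher. Of the 15 mitochondrial genes tested 2 were lower and 0 higher, which is 13.3% against the background of 14.0% in either direction and 8.98% lower. Among the mitochondrial enzymes 5 had an unadjusted limma p under 0.05, all lower, where 18.2% of all genes tested were lower at that p. With voom 4 were lower and 0 higher, where 11.7% of all genes were lower. Negative values were found for 27 of 35 synthetases (77.1%) and for 60.7% of all genes tested. With each library centred on its median, 21 of the 35 were negative beside 46.8% of all genes. The sign of 6 members not past the threshold thus depended on the scaling. Both sets stayed below all genes in that fit, with medians of -0.02 (cytoplasmic) and -0.06 (mitochondrial) beside 0.01. By structural family, 1 of 17 class I enzymes was lower and 1 higher, and 2 of 17 class II enzymes (TARS2 and FARSA) were lower.

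Pairs of enzymes for the same amino acid were compared within each library as mitochondrial minus cytoplasmic log2(TPM + 1), a difference that varies little with the scaling of a library. TARS2 minus TARS was -2.93, -3.02 and -2.92 with CsiRNA and -4.71, -5.02 and -4.74 with NEAT1siRNA. The groups did not overlap, and the difference changed by -1.87 on average (-2.27 with 0.1 added in place of 1). An exact two-sided permutation test gave p = 0.1, which is the smallest that 3 libraries against 3 allow. For the 15 other pairs apart from VARS2 and VARS, the change ran from -0.35 (MARS2 minus MARS) to 0.28 (FARS2 minus FARSA). Among these 15, the groups were lower without overlap in 5, higher without overlap in 2 and overlapping in 8. For single genes tested, 19.3% were lower and 11.0% higher without overlap, and no such share was computed for pairs. FARS2 and EPRS each enter more than 1 pair. A pair can also change through its cytoplasmic enzyme. WARS rose (0.28) while WARS2 was at 0.10, and FARSA fell (-0.31) while FARS2 was at -0.02.

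The cytoplasmic enzyme was the higher of the pair in every library in 16 of 17 pairs. The exception was cysteine, where CARS2 had a CsiRNA mean of 10.5 TPM and CARS of 8.57 TPM. In recovered reads CARS was the higher (1071 against 718 per CsiRNA library). Reads are not corrected for length. The TPM imply lengths 2.06 (CARS) and 1.69 (CARS2) times those of the annotated transcripts, so the order of this pair depends on the lengths used.

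**Figure D4:**
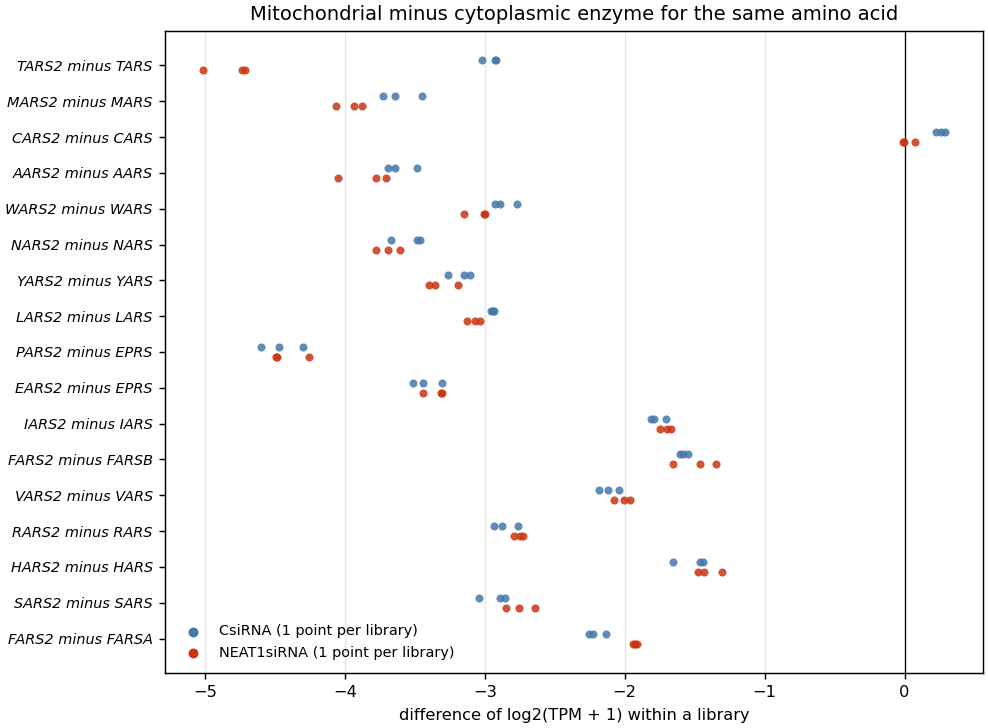
Mitochondrial minus cytoplasmic log2(TPM + 1) within each library for 17 pairs of enzymes (1 point per library, blue for CsiRNA and red for NEAT1siRNA), sorted by the change between groups. The mean of TARS2 minus TARS shifts by -1.87, and the means of the other pairs shift by -0.35 to 0.28.

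Genes that work beside the synthetases were counted from lists of the same pathway. Of 13 genes of mitochondrial translation, 0 passed the limma threshold, beside 14.0% of all genes tested. In that list 2 had an unadjusted p under 0.05, beside 27.4% of all genes tested. Voom gave 1 lower and 2 higher, beside 23.4% of all genes past its threshold. The 13 include MTIF2, the initiation factor (-0.25, adjusted p = 0.074), and TUFM, the elongation factor (-0.16). The median of that list was -0.08. Of 6 cytosolic elongation genes tested, 0 passed with limma or voom and 0 had an unadjusted p under 0.05, with a median of -0.03 and EEF1A1 at -0.03. Of 7 synthetase relatives, editing and recycling genes tested, likewise 0 passed with limma or voom and 0 had an unadjusted p under 0.05. The shares of all genes given above apply to both lists, and with 6 and 7 genes a count of 0 says little. The threonyl-tRNA synthetase relative TARSL2 was at 0.369 TPM with CsiRNA and 0.399 with NEAT1siRNA, too low to test.

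Of 14 genes that process or modify mitochondrial tRNAs, 3 fell and 0 rose, and the median was -0.14. These are 21.4%, against 14.0% of all genes tested in either direction and 8.98% lower. TRMU, which thiolates the wobble uridine of several mitochondrial tRNAs, was at 9.84, 8.08 and 8.90 TPM with CsiRNA and 6.22, 6.13 and 5.77 with NEAT1siRNA (log2 fold change -0.49, limma adjusted p = 0.00091). The groups did not overlap, and the call held in every other setting. YRDC, which takes part in making the t6A modification next to the anticodon of tRNAs that read codons starting with A, threonine tRNAs among them, was at -0.36 (adjusted p = 0.017). CDK5RAP1, which adds a methylthio group near the anticodon, was at -0.31 (adjusted p = 0.030). Neither YRDC nor CDK5RAP1 passed with no filter on TPM, without CsiRNA replicate 1 or without NEAT1siRNA replicate 3, and CDK5RAP1 also failed without CsiRNA replicate 2. The number of the list that were lower ran from 1 to 6 when each library was left out in turn, with 6 without NEAT1siRNA replicate 2. Removal of the GC trend gave 6 lower and 1 higher, beside 33.2% of all genes past the threshold in that fit, and leaving out the filter gave 1 lower, beside 2.73%.

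**Figure D5:**
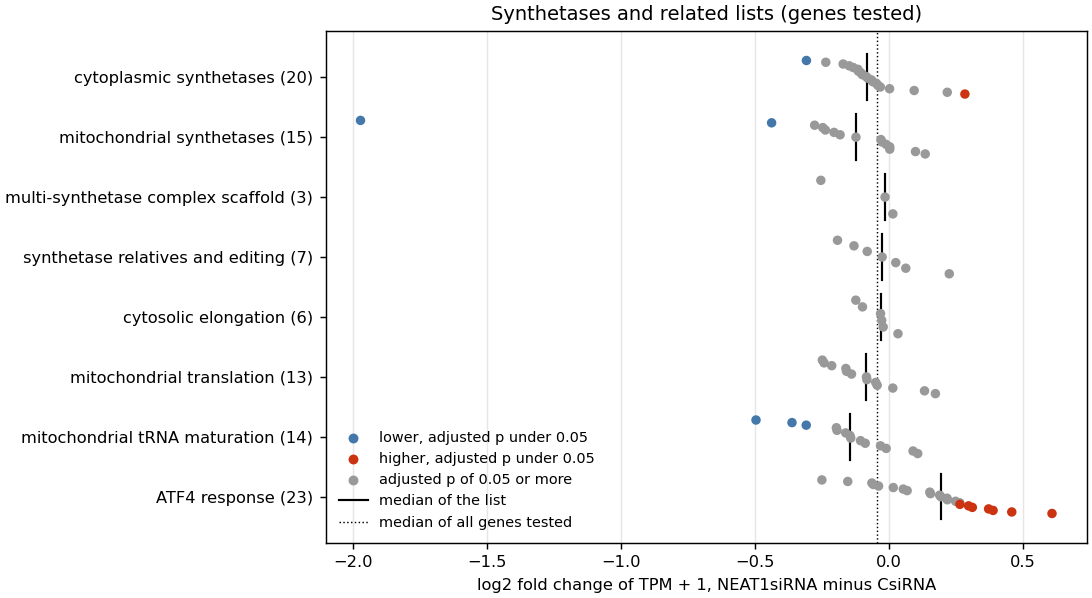
Log2 fold change of TPM + 1 (NEAT1siRNA minus CsiRNA) for each gene tested in 8 lists (number tested in parentheses), blue for lower and red for higher past the threshold, grey otherwise, with a bar at each list's median and a dotted line at that of all genes tested. TARS2 lies far to the left of every other gene shown, and the ATF4 list holds 7 genes that were higher, from 0.27 to 0.61. The cytoplasmic synthetases span -0.31 to 0.28.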

How the data were processed

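The authors prepared stranded mRNA libraries, aligned reads with STAR to GRCh38 and compared groups with DESeq2. The counting and the transcript lengths are not given in the sources used here. The deposited table holds TPM per gene and library, on a common total in every library. A further deposited table gives the mean normalized count per gene (a signal averaged over the 6 libraries by the authors) with their own fold changes and p-values, which were not used. TPM keep no depth, so reads were recovered by joining the tables: values within 0.05 of a whole number made up 99.8% for genes with a mean count under 5 and 12.9% above 500, so reads of abundant genes are approximate. Intervals cover counting or library spread only.

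TPM were transformed to log2(TPM + 1) and fitted with lmFit and eBayes (with trend) in limma 3.58.1 (R 4.3.3), over genes averaging 1 TPM or more. The labels say triplicate cultures and name no batch, so p-values measure the spread between these cultures. Gene spans, GC content and lengths came from GENCODE on GRCh38, and promoter windows from RefSeq. All 36 members matched by symbol, older symbols included. Other steps ran in Python 3.11.15 (pandas 2.3.3, numpy 2.4.6, scipy 1.17.1), with figures by matplotlib 3.10.9. The procedure was tested on simulated data drawn without a trend on GC content or length. That test cannot show how the fit behaves with the GC trend of these libraries. The members and lists were chosen with earlier results of these data known. Text names every member, NEAT1, the 3 nearest genes tested on each side of TARS2 and list members past the threshold. MTIF2, TUFM, EEF1A1, TARSL2, ASNS, the scaffold genes and the negative genes of the ATF4 list were named after their values were seen. The settings voom (limma weights on log counts) and the GC trend (splines with 4 degrees of freedom on GC content and length, per library) were alternatives. Settings varied are given in the closing section.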

Additional observations from a re-analysis of the deposited data

How the results depend on the processing

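TARS2 passed the threshold in all 17 other settings, with log2 fold changes of -2.39 to -1.90. MARS2 passed in 15 of 16, failing with no filter on TPM (adjusted p = 0.10), and could not be tested at a mean TPM of at least 5. FARSA passed in 14 of 17 and WARS in 11 of 17. No called member changed direction. Synthetases lower, 3 as reported, numbered 6 with quantile normalization, TPM rescaled without 4 short noncoding RNAs, voom on recovered reads, and GC content and length trend removed with or without the replicate block, and 2 to 6 leaving out each library in turn. The number higher, 1 as reported, was 0 with no filter or at adjusted p under 0.01, 2 with quantile normalization and voom, 3 with the GC trend removed in both fits, and 0 to 1 leaving out libraries. Cytoplasmic enzymes gave 1 lower and 1 higher as reported. Lower became 2 with quantile normalization, rescaling, voom and the GC trend with block, 3 with the GC trend alone, 0 at adjusted p under 0.01 and 0 to 2 leaving out libraries. Higher became 0 with no filter and at adjusted p under 0.01, 2 with quantile normalization and voom, 3 with the GC trend in both fits and 0 to 1 leaving out libraries. Mitochondrial enzymes lower, 2 as reported, were 1 with no filter and at a mean TPM of at least 5, 4 with quantile normalization, rescaling, voom and the GC trend with block, and 2 to 4 leaving out libraries. The cause of these changes in number was not tested. Genes that passed only in other settings were HARS, KARS, LARS2, CARS2, AARS2 and YARS2 (lower) and DARS and GARS (higher). The median of the cytoplasmic enzymes ran from -0.13 to -0.02 and that of the mitochondrial ones from -0.17 to -0.04. TARS2 minus TARS changed by -2.27 with a pseudocount of 0.1.

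Over all genes, 1498 passed, against 505 with no filter, 759 without CsiRNA replicate 1, 838 without NEAT1siRNA replicate 3, 2507 with voom and 3465 with the GC trend removed. Lower genes made up 64.3% of calls, and 50.6% with quantile normalization, 45.2% with median centring, 50.2% with voom and 50.9% with the GC trend removed. Deviations of same-numbered libraries correlated by -0.03, 0.25 and -0.11, and those of CsiRNA replicate 3 and NEAT1siRNA replicate 1 by 0.40. These values gave no clear sign of pairing by number but cannot exclude it, because the libraries also differed in GC content. With the replicate block, AARS2 also passed (adjusted p = 0.048), giving 4 lower and 1 higher, and 1640 genes passed in all. Settings for the pathway lists and the neighbours of TARS2 were added after seeing the data. TPM of low members such as PARS2 and SARS2 rest on few reads. The 4 short noncoding RNAs took 64.4% to 68.1% of TPM in a library and 2.30% to 3.01% of recovered reads.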

Other observations

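The ATF4 response, the transcription programme that many cytoplasmic synthetases belong to, was described from a list of 24 genes. Of the 23 tested, 7 rose and 0 fell, and the median log2 fold change was 0.20. These are 30.4%, against 14.0% of all genes tested in either direction and 4.99% higher. With voom on recovered reads 14 were higher and 1 lower, beside 11.6% of all genes higher and 11.7% lower. NUPR1, a stress-induced transcriptional regulator, was at 14.5, 13.7 and 16.6 TPM with CsiRNA and at 25.03, 20.7 and 24.1 with NEAT1siRNA, groups that did not overlap (log2 fold change 0.61, limma adjusted p = 0.00013). SLC7A11, the cystine importer, rose from 8.96 to 12.7 TPM (0.46), and PHGDH, which opens serine synthesis, from 25.2 to 33.0 TPM (0.37). CTH (0.39), CHAC1 (0.31), PSPH (0.30) and DDIT4 (0.27) also rose. Of these, PSPH and DDIT4 each lost the call when any of 5 libraries was left out and CHAC1 when any of 4 was, while NUPR1, SLC7A11, PHGDH and CTH kept it in each such fit. ATF4 itself was at 0.05 and DDIT3, which shares 982 bases with MARS on opposite strands, at 0.22, neither past the threshold. In this list 5 of the genes tested (21.7%) were negative, beside 60.7% of all genes tested. They were SLC7A1 (-0.25), ATF3 (-0.15), SHMT2 (-0.06), SLC3A2 (-0.06) and MTHFD2 (-0.04), none past the limma threshold. ASNS was too low to test. Of the 7 cytoplasmic synthetases with an ATF4 element core in the promoter window, 0 passed with limma or voom. Over all genes tested, 14.0% passed with limma and 23.4% with voom. GARS passed with the GC trend removed, where 33.2% of all genes did. The difference between those 7 and the list was not tested.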
